A study of Mus musculus with 32 samples.

Results

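The genes described here are 35 markers of macrophages and microglia, followed in the RPE of mice labelled *rd1* in which one eye received Nrf2 and the other eye a control virus. They were picked by symbol as myeloid lineage markers, genes of microglial states, and genes of MHC class II, leaving out complement. The rule itself uses no measured value, but the members were chosen with earlier results of these data known. All 35 were found among the 34453 genes of the table. RNA was profiled from both eyes of 16 mice, 7 at postnatal day 20 (P20) and 9 at postnatal day 40 (P40), which gave 32 libraries. The labels number the treated and control eyes without naming a mouse. Eyes of the same number and age were taken as those of the same mouse. The *rd1* allele, which the labels give for all 16 mice, removes rod phosphodiesterase and leads to the early loss of rods. The Nrf2 eyes were injected under the retina with AAV-Best1-Nrf2, which carries human *NFE2L2*, together with AAV-Best1-GFP, and the control eye of the same mouse with AAV-Best1-GFP alone. Both eyes thus had a subretinal injection and the GFP virus, and the Nrf2 eyes had a further virus, so that Nrf2 and the additional virus cannot be told apart. The Best1 promoter is used in both viruses and restricts the transgene to the RPE, so the myeloid cells themselves are not its intended target. The methods also describe P40 pairs of wild-type CD1 mice, and the P40 *rd1* and CD1 pairs described there together equal the number of P40 pairs here. The labels give all 9 P40 mice as *rd1* and were followed, but whether some of them are CD1 is not settled. At P20, the methods describe fewer *rd1* pairs than the 7 used here, and which pair is additional is not stated. Levels are given as CPM, counts relative to the TMM-scaled size of the library.

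Macrophages and microglia are phagocytes of the myeloid lineage. Their identity depends on the transcription factor PU.1, which *Spi1* encodes, and their survival on the receptor CSF1R, which binds the ligands of *Csf1* and *Il34*. Microglia of the healthy retina carry *P2ry12*, *Tmem119*, and *Cx3cr1*, and they enter the subretinal space when photoreceptors die. Reactive phagocytes use *Trem2* and its adaptor *Tyrobp*, and often raise *Spp1*, *Gpnmb*, *Lgals3*, *Cd68*, and the proteases and lysozyme of their lysosomes. MHC class II genes serve antigen presentation and are switched on together through the transactivator CIITA. Several of the 35 genes are not restricted to myeloid cells, and *Apoe*, *Gpnmb*, and *Lgals3* are known to be made by epithelial, pigmented, or glial cells as well.

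The upstream sequences of members from 4 roles are shown, because the results below differ by role. They were taken from the RefSeq promoter windows of GRCm38.p6, which held 26 of the 35 genes, and each reads 5′ to 3′ on the strand of its gene up to the base before the start site. Capitals mark GAGGAAG or its reverse complement, a core word of PU.1 sites, and CTGATTGG, the Y box of MHC class II promoters. Both strands of the 250 bases before the start site were searched, and these words do not overlap.
*Trem2*, chr17:48346301-48346400, plus strand: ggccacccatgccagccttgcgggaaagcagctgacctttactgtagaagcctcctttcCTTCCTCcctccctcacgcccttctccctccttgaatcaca
*Fcgr3*, chr1:171059404-171059503, minus strand: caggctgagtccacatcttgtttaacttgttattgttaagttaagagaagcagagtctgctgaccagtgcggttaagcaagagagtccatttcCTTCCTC
*Itgam*, chr7:128062540-128062639, plus strand: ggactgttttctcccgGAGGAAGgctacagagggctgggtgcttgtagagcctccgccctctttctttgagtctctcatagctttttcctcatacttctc
*Spp1*, chr5:104434991-104435110, plus strand: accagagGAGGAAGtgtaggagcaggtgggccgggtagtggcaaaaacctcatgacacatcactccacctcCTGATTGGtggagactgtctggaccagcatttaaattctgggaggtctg
*H2-Aa*, chr17:34287824-34287923, minus strand: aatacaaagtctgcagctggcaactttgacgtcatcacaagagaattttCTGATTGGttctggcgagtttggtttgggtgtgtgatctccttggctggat
*H2-Eb1*, chr17:34305767-34305866, plus strand: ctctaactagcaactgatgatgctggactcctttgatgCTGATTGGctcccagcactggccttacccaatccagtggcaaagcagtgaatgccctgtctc

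The PU.1 word was present upstream of 7 of the 26 genes (*Fcgr1*, *Fcgr3*, *Itgam*, *Laptm5*, *Mrc1*, *Spp1*, and *Trem2*) and in 10.6% of all 32851 windows. The Y box was present upstream of *Spp1*, *H2-Aa*, and *H2-Eb1*, and in 3.83% of all windows. The antioxidant response element to which Nrf2 binds, searched as TGACNNNGC, was present upstream of *Ptprc* and *P2ry12* only among the 26, and in 10.2% of all windows. The copy before *P2ry12* starts 221 bases upstream and lies in an exon of the overlapping gene *Med12l*. Members with the PU.1 word thus include genes that rose with Nrf2 at P40 (*Trem2*, *Fcgr3*, *Spp1*, and *Laptm5*) and genes for which no such rise was called (*Itgam*, *Fcgr1*, and *Mrc1*).

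The libraries held between 16548332 and 50542797 counts. The transgene, which checks the labels, was at 3203 CPM or more in all Nrf2 eyes except that of P20 mouse 4, where it was at 1082 CPM. It was at 1098 CPM in the control eye of P20 mouse 3 and at a median of 47.2 CPM in P20 control eyes and 0.383 CPM in P40 control eyes. Among P40 control eyes, that of mouse 8 held 1635 counts of the transgene and that of mouse 5 held 1153, against 58 or fewer in the others. The library labelled P20 control 3 and the library labelled P20 Nrf2 4 were the closest of all pairs, with squared differences 8.26 times the sampling noise, against 48.6 times for the next closest pair. Both were kept under their labels, and results that rest on them are also given without P20 mice 3 and 4. As for the tissue, the summed level of 10 RPE markers was between 4948 and 70940 CPM, which shows RPE RNA in every library, while *Cd163*, a scavenger receptor of resident macrophages, was at 1.25 CPM or lower.

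Per kilobase of exonic sequence, which allows levels of different genes to be compared, *Apoe* was the most abundant member, with a median of 2330 CPM per kb over the 32 libraries. *Gpnmb* followed with 321 CPM per kb and *Lgals3* with 158 CPM per kb. All other members lay at 21.9 CPM per kb (*Spp1*) or lower, down to 0.0293 CPM per kb (*Cd163*). The order of the levels was not the same in all groups, as a pair of lineage genes and an adaptor gene show. In P20 control eyes the medians were 28.2 CPM per kb for *Csf1r*, 16.99 CPM per kb for *Itgam*, and 6.64 CPM per kb for *Tyrobp*, and in P40 Nrf2 eyes they were 8.48, 6.21, and 44.6 CPM per kb in the same order. Abundant members and members typical of myeloid cells are therefore described apart from each other.

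At P40, 15 of the 34 members tested rose with Nrf2 and 0 fell. They passed the threshold of an adjusted *P* value of 0.05, where 3.33% of all 16686 genes tested were called higher and 1.23% lower (4.57% in either direction). The median log2 fold change was 1.19 over the members and −0.03 over all genes tested, with 27 members above 0 and 7 below. The called members were *Laptm5*, *Cd53*, *Adgre1*, *Mpeg1*, *Ly86*, *Cx3cr1*, *P2ry12*, *Tyrobp*, *Fcer1g*, *Fcgr3*, *Trem2*, *Lyz2*, *Ctss*, *Spp1*, and *Ccl2*. In a bulk sample, more myeloid cells, more RNA of these genes per cell, and RNA of these genes from cells that are not myeloid cannot be told apart. In the map of differences between the eyes of each mouse, the rise was present in all 9 mice, with 24 to 32 of the 35 members higher in the Nrf2 eye, and medians between 0.22 in mouse 4 and 1.98 in mouse 7.

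**Figure D1:**
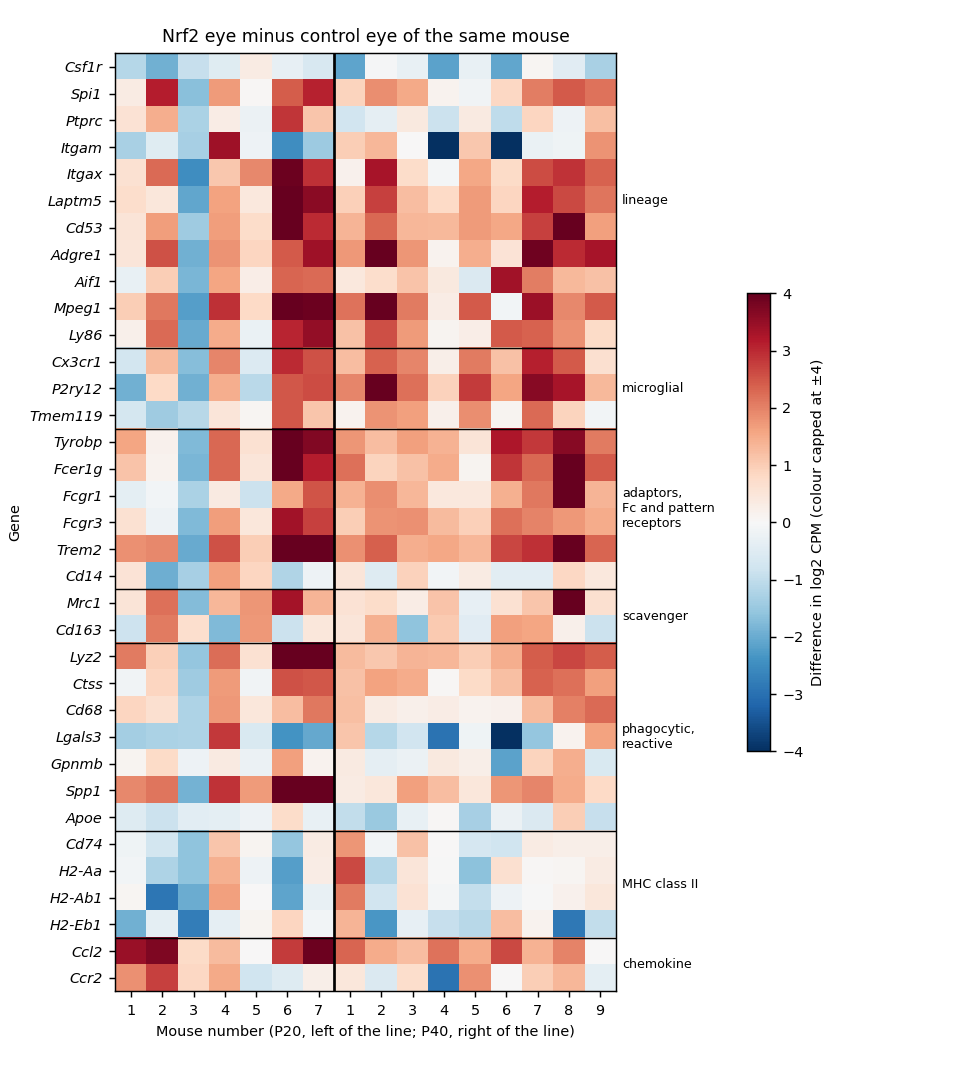
Difference in log2 CPM between the Nrf2 eye and the control eye of each mouse (columns, 7 mice at P20 and 9 at P40) for the 35 members (rows, by role), with red for higher and blue for lower in the Nrf2 eye and colours capped at 4. Of the lineage genes 8 of 11, the 3 microglial genes, and 5 of the 6 adaptor and receptor genes are red in at least 8 of the 9 P40 mice, P20 mouse 3 is blue in 32 of 35 genes, and the MHC class II rows are mixed at both ages.

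Of the 11 lineage genes, 5 rose at P40. *Laptm5*, a lysosomal membrane protein of leukocytes, was between 5.91 and 10.9 CPM in control eyes (median 7.32) and between 11.1 and 52.1 CPM in Nrf2 eyes (median 35.7). The groups did not overlap, and *Laptm5* rose by 1.76 ± 0.28 (log2 fold change ± SE; adjusted *P* = 0.00317). *Adgre1*, which encodes the macrophage surface protein F4/80, was between 0.227 and 2.31 CPM in control eyes (median 0.742) and between 1.40 and 8.06 CPM in Nrf2 eyes (median 5.25). All 9 mice had more of it in the Nrf2 eye, although the groups overlapped, and it rose by 2.28 ± 0.52 (adjusted *P* = 0.0250). Its call was lost in 5 of the 9 fits that left out 1 mouse. *Mpeg1*, a pore-forming protein of phagocytes, had medians of 3.49 and 19.3 CPM (range, 1.87 to 10.7 and 3.35 to 59.2) and rose by 2.09 ± 0.42 (adjusted *P* = 0.0122). The tetraspanin gene *Cd53* had medians of 1.73 and 7.76 CPM (range, 0.303 to 3.402 and 3.13 to 13.4) and rose by 1.98 ± 0.37 (adjusted *P* = 0.00803). *Ly86*, a partner of the receptor RP105, had medians of 1.40 and 5.72 CPM (range, 0.906 to 5.19 and 1.51 to 11.4), and its rise of 1.46 ± 0.35 (adjusted *P* = 0.0312) was lost in 6 of the 9 fits.

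The other 6 lineage genes did not pass the threshold, and they did not all lean the same way. *Spi1*, the gene of PU.1, had a log2 fold change of 1.30 ± 0.34 (adjusted *P* = 0.0556), *Itgax* one of 1.71 ± 0.52 (adjusted *P* = 0.107), and *Aif1* one of 1.05 ± 0.36 (adjusted *P* = 0.173). *Csf1r* was between 23.6 and 418 CPM in control eyes (median 109) and between 17.2 and 106 CPM in Nrf2 eyes (median 49.0). It was thus lower in the Nrf2 eye of 8 of 9 mice, with a log2 fold change of −0.99 ± 0.29 (adjusted *P* = 0.0902). *Itgam*, the integrin subunit CD11b, was between 8.50 and 61.9 CPM in control eyes (median 28.5) and between 2.38 and 83.4 CPM in Nrf2 eyes (median 31.2), with 5 of 9 mice higher and a log2 fold change of −0.17 ± 0.67. *Ptprc*, the pan-leukocyte marker CD45, had a log2 fold change of −0.08 ± 0.30 (adjusted *P* = 0.966).

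**Figure D2:**
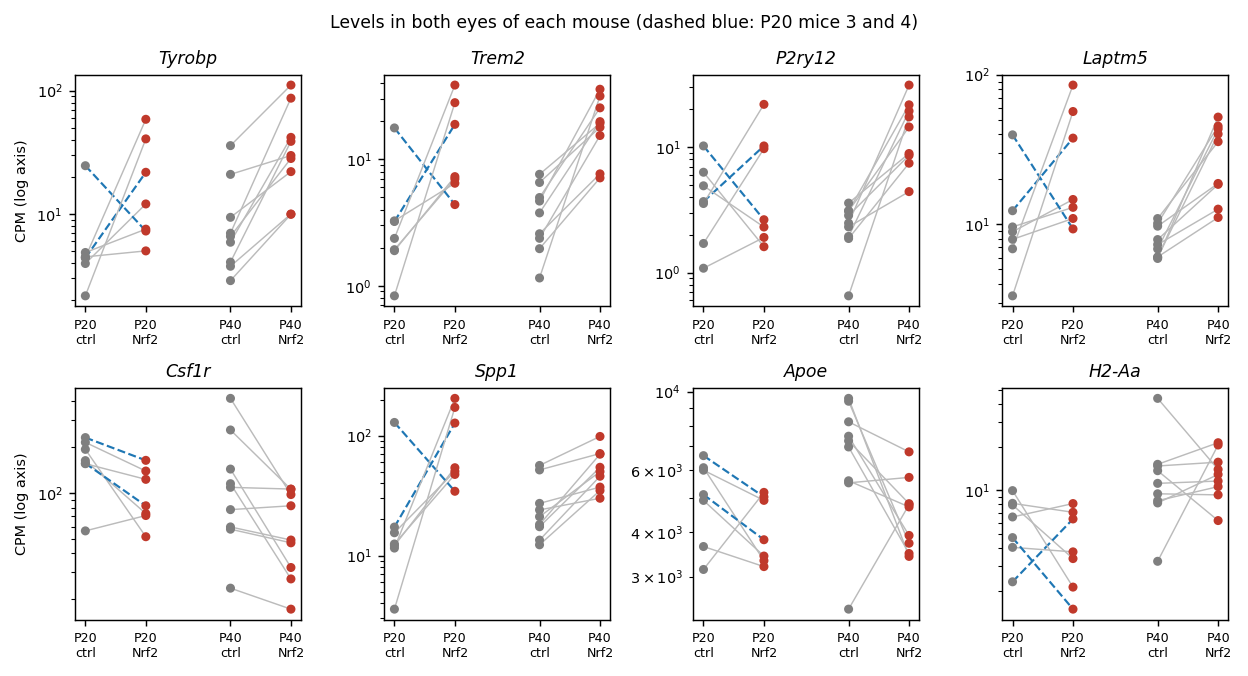
Levels of 8 members in CPM on a log axis, with control eyes in grey, Nrf2 eyes in red, and lines joining the eyes of a mouse (dashed blue for P20 mice 3 and 4). At P40 all 9 lines rise for *Tyrobp*, *Trem2*, *P2ry12*, *Laptm5*, and *Spp1*, 8 of 9 fall for *Csf1r*, and those of *H2-Aa* go both ways.

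Among the 3 homeostatic genes of microglia, *P2ry12* and *Cx3cr1* rose at P40. *P2ry12*, the purinergic receptor by which microglia sense nucleotides, had the largest log2 fold change of the members tested, 2.43 ± 0.39 (adjusted *P* = 0.00322). It was between 0.652 and 3.58 CPM in control eyes (median 2.48) and between 4.42 and 31.3 CPM in Nrf2 eyes (median 14.5), without overlap. *Laptm5* and *P2ry12* were the only members without overlap at P40, where the groups of 1.3% of all 16686 genes tested did not overlap. *Cx3cr1*, the receptor for fractalkine, was between 2.36 and 5.75 CPM in control eyes (median 3.74) and between 4.62 and 25.1 CPM in Nrf2 eyes (median 12.3), and rose by 1.67 ± 0.31 (adjusted *P* = 0.00825). *Tmem119*, a microglial membrane protein, had medians of 6.08 and 9.44 CPM (range, 2.46 to 8.59 and 6.79 to 27.4) and was higher in 8 of 9 Nrf2 eyes, with a log2 fold change of 0.94 ± 0.30 that did not pass the test (adjusted *P* = 0.133).

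Of the 6 genes for adaptors, Fc receptors, and pattern receptors, 4 rose at P40. *Tyrobp* (ENSMUSG00000030579, chr7:30413760-30417585), the adaptor through which TREM2 signals, was between 2.87 and 35.8 CPM in control eyes (median 6.57) and between 9.92 and 111 CPM in Nrf2 eyes (median 29.8). Levels were higher in all 9 Nrf2 eyes than in their partners, and *Tyrobp* rose by 1.99 ± 0.32 (adjusted *P* = 0.00318). *Trem2* (ENSMUSG00000023992, chr17:48346401-48354147), the lipid-sensing receptor itself, was between 1.15 and 7.61 CPM in control eyes (median 3.77) and between 7.13 and 35.8 CPM in Nrf2 eyes (median 19.3), and rose by 2.29 ± 0.33 (adjusted *P* = 0.00157). The receptor and its adaptor thus rose in the same comparison, in all 9 mice each. *Fcer1g*, the common γ chain of Fc receptors, had medians of 3.77 and 18.6 CPM (range, 1.77 to 19.1 and 6.53 to 57.0) and rose by 1.93 ± 0.39 (adjusted *P* = 0.0130). *Fcgr3*, a low-affinity receptor for IgG, had medians of 2.94 and 10.5 CPM (range, 1.64 to 5.70 and 4.16 to 15.04) and rose by 1.56 ± 0.22 (adjusted *P* = 0.00111). Reads of *Fcgr3* may be shared with its close relatives, which makes its own level uncertain. *Fcgr1*, the high-affinity receptor, was higher in all 9 Nrf2 eyes but did not pass the test (1.65 ± 0.54; adjusted *P* = 0.147), and the LPS coreceptor gene *Cd14* had a log2 fold change of 0.13 ± 0.22 (adjusted *P* = 0.912).

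Of the scavenger receptors that mark resident macrophages of tissues, *Mrc1* had medians of 1.04 CPM in control and 1.498 CPM in Nrf2 eyes at P40 (range, 0 to 1.11 and 0.866 to 4.40), with a log2 fold change of 0.94 ± 0.58 (adjusted *P* = 0.594). *Cd163* was too low to be tested. A count of 3 in a library, taken as the floor, corresponded to between 0.0565 and 0.182 CPM.

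The 7 genes of the phagocytic and reactive state split. The secreted and lysosomal products of phagocytes, *Lyz2*, *Ctss*, and *Spp1*, rose, whereas the 3 most abundant genes did not. *Lyz2* (lysozyme) was between 10.1 and 27.3 CPM in control eyes (median 13.6) and between 24.5 and 108 CPM in Nrf2 eyes (median 41.8), and rose by 1.63 ± 0.21 (adjusted *P* = 0.000754). Its reads may be shared with the near copy *Lyz1*. *Ctss* (cathepsin S) was between 16.6 and 49.7 CPM in control eyes (median 25.2) and between 24.03 and 134 CPM in Nrf2 eyes (median 79.2), and rose by 1.35 ± 0.22 (adjusted *P* = 0.00385). *Spp1* (osteopontin) was between 12.3 and 56.5 CPM in control eyes (median 21.1) and between 30.1 and 98.5 CPM in Nrf2 eyes (median 50.2), and rose by 1.09 ± 0.21 (adjusted *P* = 0.0106). All 3 were higher in the Nrf2 eye of all 9 mice. *Cd68*, a lysosomal glycoprotein, was also higher in all 9 mice, with a log2 fold change of 0.83 ± 0.26 that did not pass (adjusted *P* = 0.124).

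The abundant members had small or negative differences. *Apoe*, the lipid carrier apolipoprotein E, was between 2428 and 9564 CPM in P40 control eyes (median 7256) and between 3421 and 6754 CPM in Nrf2 eyes (median 4721), with 7 of 9 mice lower and a log2 fold change of −0.59 ± 0.29 (adjusted *P* = 0.433). *Gpnmb*, a glycoprotein of lysosomes and pigment organelles, was between 335 and 2532 CPM in control eyes (median 1298) and between 570 and 2650 CPM in Nrf2 eyes (median 1404), with a log2 fold change of −0.02 ± 0.32. *Lgals3* (galectin 3) was between 134 and 1750 CPM in control eyes (median 525) and between 35.9 and 1931 CPM in Nrf2 eyes (median 228), with a log2 fold change of −0.85 ± 0.55 (adjusted *P* = 0.621). Among these 3 genes the differences between the eyes of a mouse spanned the widest range for *Lgals3*, from −3.98 to 1.60.

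No MHC class II gene passed edgeR's test at P40, and none had an unadjusted *P* value under 0.05. *Cd74*, the invariant chain, was between 24.1 and 88.1 CPM in control eyes (median 38.3) and between 22.4 and 89.5 CPM in Nrf2 eyes (median 44.6), with a log2 fold change of 0.19 ± 0.25 (adjusted *P* = 0.871). *H2-Aa*, an α chain, was between 3.23 and 43.5 CPM in control eyes (median 11.2) and between 6.19 and 21.4 CPM in Nrf2 eyes (median 12.9), with a log2 fold change of 0.10 ± 0.36 (adjusted *P* = 0.966). The β chain genes *H2-Ab1* and *H2-Eb1* had values of 0.09 ± 0.27 and −0.74 ± 0.54. These genes are highly polymorphic, and the reference genome is of another strain, so their levels are less certain than their differences between the eyes of a mouse.

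On the chemokine axis, the monocyte attractant gene *Ccl2* rose and the gene of its receptor, *Ccr2*, was not called. *Ccl2* was between 0 and 0.874 CPM in P40 control eyes (median 0.340) and between 0 and 2.68 CPM in Nrf2 eyes (median 1.26), with 3 control eyes and 1 Nrf2 eye at 3 counts or fewer. It was higher in 8 of 9 mice, with a fitted log2 fold change of 2.05 ± 0.41 (adjusted *P* = 0.0141), whose size is uncertain at such low counts. *Ccr2*, a marker of infiltrating monocytes, had medians of 0.556 and 0.735 CPM (range, 0.182 to 1.42 and 0.0855 to 1.22) and a log2 fold change of 0.19 ± 0.51 (adjusted *P* = 0.953).

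**Figure D3:**
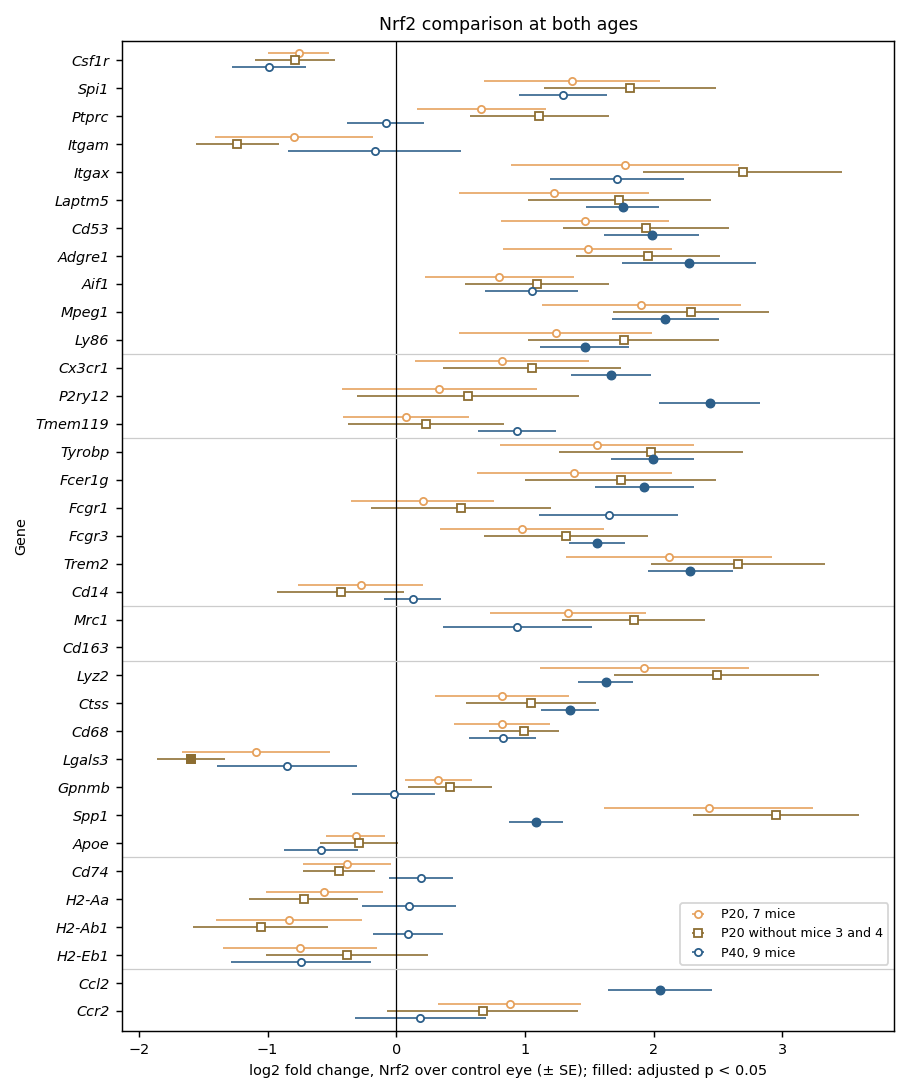
Log2 fold change of Nrf2 over control eyes with its SE for each member at P20 (orange), at P20 without mice 3 and 4 (brown squares), and at P40 (blue), with filled symbols for an adjusted *P* value below 0.05. At P40, 15 members are filled, all to the right of 0, and the P20 values of most of them lie on the same side with wider error bars.

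Genes outside the 35 were read from fixed lists in the same fit. Like the members, these lists were chosen with earlier results of these data known. Of 6 tested ligands of the receptors, 3 rose at P40. *Csf1*, which encodes the ligand of CSF1R, had medians of 7.28 and 27.3 CPM (range, 3.21 to 13.5 and 9.14 to 43.6), was higher in all 9 Nrf2 eyes, and rose by 1.68 ± 0.22 (adjusted *P* = 0.000841). *Il34*, the other ligand of CSF1R, had medians of 6.00 and 11.2 CPM (range, 2.85 to 10.2 and 9.79 to 17.1) and rose by 1.17 ± 0.23 (adjusted *P* = 0.0105). *Lbp*, which carries LPS to CD14, rose by 1.38 ± 0.22 (adjusted *P* = 0.00253). The ligand genes thus rose where the value of *Csf1r* itself was negative. Of 50 other myeloid genes, 12 rose and 0 fell, with a median log2 fold change of 0.86. They included *Cst7*, *Lpl*, *Fcgr2b*, *Fcrls*, *Ms4a7*, *Siglech*, *Lcp1*, *Cd33*, *Ms4a6c*, and *Olfml3*. The cystatin gene *Cst7*, which reactive microglia raise near lesions, was between 0.0718 and 1.14 CPM in control eyes (median 0.277) and between 1.60 and 11.6 CPM in Nrf2 eyes (median 5.17), without overlap, and rose by 3.67 ± 0.37 (adjusted *P* = 0.000124). Lipoprotein lipase (*Lpl*) rose by 2.14 ± 0.23 (adjusted *P* = 0.000171), from a median of 135 to 539 CPM. Of 9 tested partners of MHC class II, *Cd83* rose by 1.66 ± 0.28 (adjusted *P* = 0.00456) and the other 8 were not called.

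Markers of other cells at P40 are given beside these results. None of 7 tested markers of other leukocytes, 5 of erythroid cells, and 7 of endothelium passed edgeR's test, also at an unadjusted *P* value under 0.05, and of 21 leukocyte markers listed, 6 (among them *Ncr1*, *Elane*, *Ngp*, *Camp*, and *Retnlg*) were at 3 counts or fewer in most libraries. The summed level of the leukocyte markers was between 3.399 and 15.4 CPM in control eyes and between 2.26 and 27.8 CPM in Nrf2 eyes. Of 6 fibroblast markers, *Col3a1* rose by 1.13 ± 0.29 (adjusted *P* = 0.0460). Of 10 RPE markers, 5 fell (*Rpe65*, *Lrat*, *Rgr*, *Rlbp1*, and *Rdh5*), of which *Rpe65* fell by 2.82 ± 0.32 on the log2 scale (adjusted *P* = 0.000280). Of 7 tested rod markers, *Gngt1* fell. All 8 Nrf2 targets rose, with a median log2 fold change of 3.77. The part of these other genes in the myeloid differences was not tested.

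At P20, no member passed the threshold in edgeR's test. Of 33 members tested, 0 were called (3.41% of all 16303 genes). An unadjusted *P* value under 0.05 in edgeR's test was found for 5 members and for 2964 of the 16303 genes. DESeq2 called 5 members and limma voom 0, given here without the share of all genes in those fits. The median log2 fold change was 0.82 over the members and −0.04 over all genes, with 24 members above 0 and 9 below. Mouse 3 went against the others. In mouse 3, 3 of the 35 members were higher in the Nrf2 eye, with a median difference of −1.61, whereas in the 6 other mice 21 to 31 members were higher, with medians between 0.12 and 2.47. Among P20 control eyes, the library labelled control 3 had the highest level of 24 of the 35 members. Without mice 3 and 4, the median was 1.05, 16 members had an unadjusted *P* value under 0.05, and 1 passed, *Lgals3*, which fell by 1.60 ± 0.26 on the log2 scale (adjusted *P* = 0.0251), where 4.58% of all 16567 genes were called in either direction and 1.55% lower. The share of all genes with an unadjusted *P* value under 0.05 in that fit is not given here.

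The individual values at P20 show where the spread lay. *Spp1* was between 3.58 and 129 CPM in control eyes (median 12.5) and between 34.4 and 205 CPM in Nrf2 eyes (median 54.1), with 6 of 7 mice higher and a log2 fold change of 2.43 ± 0.81 (adjusted *P* = 0.161). Without mice 3 and 4 it was 2.95 ± 0.65 (adjusted *P* = 0.0516). *Trem2* was between 0.832 and 17.7 CPM in control eyes (median 2.37) and between 4.38 and 38.7 CPM in Nrf2 eyes (median 7.29), with a log2 fold change of 2.12 ± 0.80 (adjusted *P* = 0.210). The highest control value of *Spp1*, *Trem2*, *Tyrobp*, *Laptm5*, and *Lyz2* was that of mouse 3. With all eyes, 0 members were without overlap at P20. Without the control eye of mouse 3, the groups were apart for *Spp1*, *Trem2*, and *Tyrobp*, and still overlapped for *Laptm5* and *Lyz2*. That eye held the highest control values of these same genes, so leaving it out favours separation, and no conclusion is drawn from it. The share of all genes apart without it was not computed. *Tyrobp* was between 2.16 and 24.6 CPM in control eyes (median 4.43) and between 5.01 and 58.6 CPM in Nrf2 eyes (median 12.04), with a log2 fold change of 1.56 ± 0.75 (adjusted *P* = 0.317). *P2ry12* was between 1.08 and 10.2 CPM in control eyes (median 3.68) and between 1.61 and 21.9 CPM in Nrf2 eyes (median 2.64), with 4 of 7 mice higher and a log2 fold change of 0.33 ± 0.76.

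The 15 members called at P40 can be read in the separate mice of P20. Between 11 and 15 of them were higher in the Nrf2 eye in 6 mice, and 1 of 15 in mouse 3. The medians of their differences were largest in mouse 6 (3.99) and mouse 7 (3.51). *Ccl2* was the only member higher in all 7 Nrf2 eyes at P20, but 5 control eyes were at 3 counts or fewer and it was not tested. *Csf1r* had the smallest unadjusted *P* value at P20, with medians of 163 CPM in control and 82.3 CPM in Nrf2 eyes (range, 56.2 to 231 and 51.5 to 164). It was lower in 6 of 7 Nrf2 eyes, with a log2 fold change of −0.76 ± 0.24 (adjusted *P* = 0.141). Both ages thus had negative values for *Csf1r* that did not pass. The 4 MHC class II genes were between −0.83 and −0.39 at P20, none called and none at an unadjusted *P* value under 0.05.

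Of the fixed lists at P20, the ligand genes *Csf1* and *Lbp* rose. *Csf1* had medians of 11.6 and 38.4 CPM and rose by 1.45 ± 0.22 (adjusted *P* = 0.0136), and it was higher in all 7 Nrf2 eyes. *Lbp* rose by 1.44 ± 0.22 (adjusted *P* = 0.0143). Of 49 tested other myeloid genes, 1 was called, *Lpl*, which rose by 1.93 ± 0.23 (adjusted *P* = 0.00921), where 3.41% of all genes were called. Its groups did not overlap, but the share of all genes without overlap at P20 was not computed. *Lpl* was higher in all 7 Nrf2 eyes, also in mouse 3, with the smallest difference in mouse 4 (0.81). The cells that its RNA came from were not tested. Without mice 3 and 4, 4 rose (*Lpl*, *Lcp1*, *Clec7a*, and *Fcgr2b*). Of the RPE markers, *Rpe65* fell by 2.17 ± 0.37 on the log2 scale (adjusted *P* = 0.0198), and all 8 Nrf2 targets rose.

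The size of the Nrf2 difference was then compared between the ages. In the test of that difference over all 32 libraries, 0 of 35 members passed edgeR's threshold (0.00557% of all genes were called). DESeq2 and limma voom also called 0. An unadjusted *P* value under 0.05 in edgeR's test was found for 1 member and for 429 of all 17959 genes. That member was *P2ry12*, whose log2 fold change was larger at P40 than at P20 by 2.11 ± 0.82 (adjusted *P* = 0.9995). For *Spp1* the P40 value was smaller by 1.34 on the log2 scale (SE 0.74). The calls at P40 and their absence at P20 are therefore not shown to differ between the ages.

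Between the ages, few members differed in control eyes. Of 33 tested, 1 was called, *Itgam*, which fell (14.8% of all 16832 genes were called in either direction and 6.42% lower), and the median log2 fold change was 0.05. *Itgam* was between 7.51 and 162 CPM in P20 control eyes (median 85.3) and between 8.50 and 61.9 CPM in P40 control eyes (median 28.5). The groups overlapped through mouse 4 at P20, which had the lowest value, and the fall of 1.42 ± 0.46 on the log2 scale (adjusted *P* = 0.0483) was kept in 5 of 16 fits that left out 1 eye. Without mice 3 and 4 it was −1.68 ± 0.39 (adjusted *P* = 0.0544), and 0 of 34 members passed, where 0.916% of all genes were called. The differences of *Itgam* between the eyes of a mouse were lowest in mouse 6 and highest in mouse 4 at P20. At P40 they were lowest in mouse 6 and highest in mouse 9. Those of *Lgals3* were lowest and highest in the same mice at both ages. The cells that the *Itgam* RNA came from were not tested. *H2-Aa* had medians of 6.55 CPM at P20 and 11.2 CPM at P40 and a log2 fold change of 1.23 ± 0.44 (adjusted *P* = 0.0623), and all 4 MHC class II genes had values above 0, with a median of 0.69. In the same eyes 4 of 6 fibroblast markers fell (*Col1a1*, *Col1a2*, *Col3a1*, and *Pdgfra*), as did 4 of 8 Nrf2 targets (*Gclc*, *Slc7a11*, *Txnrd1*, and *Srxn1*), 2 of 8 rod markers, *Abca8a* of 6 Müller glia markers, and *Alas2* of 5 erythroid markers, whereas *Ttr* and *Kcnj13* of 10 RPE markers rose. Without P20 mice 3 and 4, edgeR called 1 fibroblast and 1 rod marker and 0 Nrf2 targets, Müller glia, erythroid, or RPE markers. The part of these genes in the result was not tested. If some P40 mice are CD1, strain and age cannot be told apart in this comparison. Sequencing run and age cannot be told apart either, because the labels mention more than 1 run and assign no library to either.

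**Figure D4:**
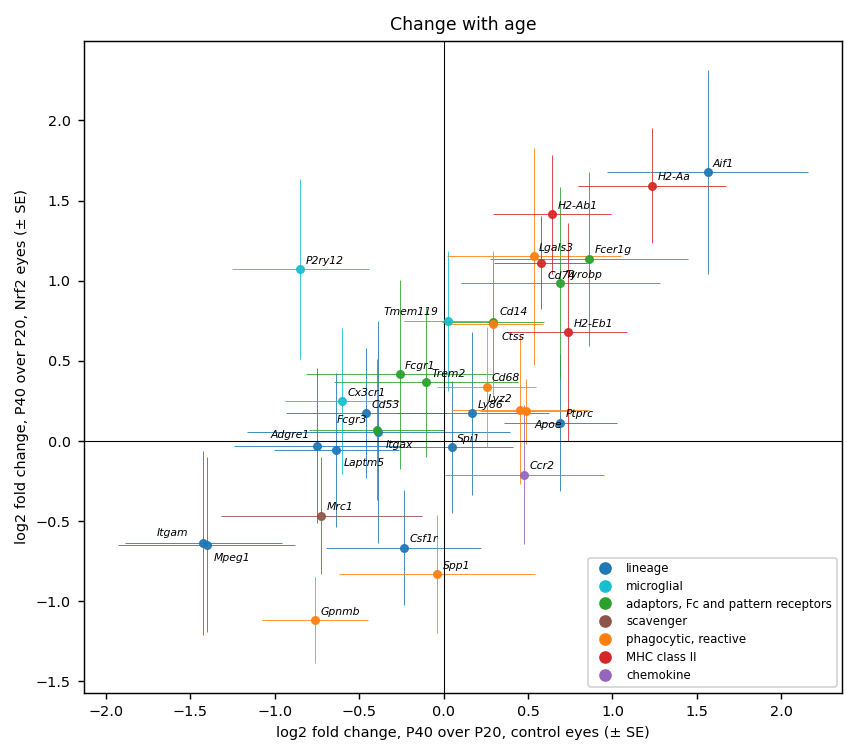
Log2 fold change from P20 to P40 in control eyes (horizontal axis) and in Nrf2 eyes (vertical axis), each with its SE, for the 33 members tested in both, coloured by role. The 4 MHC class II genes lie above 0 on both axes, *Itgam*, *Mpeg1*, and *Gpnmb* below 0 on both, and *P2ry12* has opposite signs.

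In Nrf2 eyes, 0 of 35 members passed edgeR's threshold between P20 and P40 (0.502% of all 16745 genes were called). An unadjusted *P* value under 0.05 in edgeR's test was found for 6 members and for 4326 of the 16745 genes. DESeq2 called 5 members and limma voom 4, given here without the share of all genes in those fits. The closest to edgeR's threshold were MHC class II genes and *Gpnmb*. *H2-Aa* was between 1.51 and 8.12 CPM at P20 (median 3.76) and between 6.19 and 21.4 CPM at P40 (median 12.9), with a log2 fold change of 1.59 ± 0.36 (adjusted *P* = 0.0609). *H2-Ab1* had a value of 1.41 ± 0.37 (adjusted *P* = 0.0940) and *Cd74* one of 1.11 ± 0.29 (adjusted *P* = 0.0935), whereas the 10 partner genes of MHC class II had a median of 0.21 in the same comparison. *Gpnmb* was between 2488 and 3764 CPM at P20 (median 3112) and between 570 and 2650 CPM at P40 (median 1404), with a log2 fold change of −1.12 ± 0.27 (adjusted *P* = 0.0746). The median of the 4 MHC class II genes was thus 1.26 with age in Nrf2 eyes and 0.09 with Nrf2 at P40, and that of the 11 lineage genes was −0.03 and 1.46 in the same order, in comparisons that share the P40 Nrf2 eyes. Without P20 mice 3 and 4, 0 of 35 members passed edgeR's threshold with age in Nrf2 eyes, where 0.116% of all 17293 genes were called. As in control eyes, sequencing run and age cannot be told apart, nor can strain and age if some P40 mice are CD1.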

How the data were processed

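RNA of the RPE from both eyes of each mouse was amplified by the authors before sequencing. Their methods name STAR with featureCounts, and Salmon with tximport and DESeq2, and the submitters' processing notes name Salmon 0.9.1 and FastQC. The authors deposited whole numbers for each gene and library, not normalized, which were treated here as rounded estimated counts, since it was not stated whether they come from Salmon or featureCounts. Symbols, positions, and exonic lengths were taken from GENCODE M21 (GRCm38).

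Counts were fitted in R 4.3.3 with edgeR 4.0.16 (filterByExpr, TMM, quasi-likelihood test, 2-sided), with the mouse as a block for Nrf2 and without a block for age. *P* values were adjusted by Benjamini-Hochberg over all genes tested. SEs were derived from the F statistic. Log2 CPM, and the differences between eyes taken from it, used a prior count of 2, on which the differences of a gene at 3 counts or fewer depend. The fitted fold changes did not use that prior count, and those of genes at so few counts are uncertain. The named members are those past the threshold in any comparison, the most abundant member of each role, and the 2 with the smallest *P* value per comparison. *Lgals3*, *Spi1*, *Itgax*, *Aif1*, *Ptprc*, *Fcgr1*, *Cd14*, *Cd68*, *H2-Ab1*, and *H2-Eb1* were named in addition after their values were seen, as were the promoter words. The members, lists, and tests were chosen with earlier results of these data known.

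Eyes were paired by the number that follows the treatment in the labels. It was read as the mouse, because the methods pair the eyes of each mouse. As a check over 16384 genes, each eye's distance from its group mean was correlated with that of its partner, which gave an average r of −0.00339 for the P20 mice (2 of 7 over 0.1) and 0.125 for the P40 mice (4 of 9 over 0.1). Eyes of different numbers gave 0.00479 at P20 and −0.00407 at P40. At P20 the check thus did not set same-numbered eyes apart from others, and the pairing rests on the labels and methods. The alternatives were DESeq2 1.42.0, limma 3.58.1 voom with quality weights, RLE or total count scaling, other filters, a looser threshold, fits with or without the block, without P20 mice 3 and 4, and without each mouse or eye. The tests were first run on simulated data with known changes. Depth limits only the lowest genes, and because the RNA was amplified, floors cover counting error only. No library was left out of the main fits. A few genes of the fixed lists are not reported here by name.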

Additional observations from a re-analysis of the deposited data

Results flagged for a closer look

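In each group of 7 or 9 eyes, and in the differences between the eyes of each mouse, a value was singled out where its gap to the next value was large relative to the range (Dixon's test on log2 CPM). This held for 21 of 144 sets of values from the named members, where chance alone gives about 1 in 20, and the sets share libraries.

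At P20, the control eye of mouse 3 stood above the other control eyes for *Tyrobp* (24.6 CPM), *Adgre1* (5.65 CPM), and *Mpeg1* (49.2 CPM). The same library held the transgene at 1098 CPM. Other control eyes at P20 stood apart downward, that of mouse 5 for *Csf1r* (56.2 CPM), that of mouse 4 for *Itgam* (7.51 CPM), and that of mouse 6 for *Gpnmb* (1215 CPM). The *Itgam* difference of mouse 4 (3.39 on the log2 scale) and the *Apoe* difference of mouse 6 (0.72) were the only such differences at P20. The Nrf2 eye of mouse 5 was lowest for *Ccl2* (0.0854 CPM).

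At P40, the library of the control eye of mouse 8 was the smallest (17721493 counts) and held 1635 counts of the transgene. That eye was lowest for *Mrc1* (0 CPM), *Apoe* (2428 CPM), *Cd53* (0.303 CPM), and *Gpnmb* (335 CPM). The log2 differences of mouse 8 were accordingly apart for *Mrc1* (6.27), *Trem2* (4.71), and *Cd53* (4.78), and 14 members passed the threshold for Nrf2 at P40 without this mouse. Single control eyes were also apart for *Tmem119* (2.46 CPM in mouse 3), *Cd74* (88.1 CPM in mouse 5), and *P2ry12* (0.652 CPM in mouse 2). The Nrf2 eye of mouse 4 was lowest for *Ccr2* (0.0855 CPM), which gave a log2 difference of −2.96.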

How the results depend on the processing

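The counts of members below are given without the share of all genes called in the same fit. That share also moved between fits. With age in control eyes it was 14.8%, and 0.916% without P20 mice 3 and 4. A higher or lower count is therefore not by itself a stronger or weaker result for the members. The number of members past the threshold for Nrf2 at P40 was between 11 (no replicate block) and 22 (DESeq2), and between 13 and 16 when 1 mouse was left out, where the median log2 fold change was between 1.10 and 1.29. At P20, where 0 passed, 5 passed with DESeq2, 1 passed without P20 mice 3 and 4, and between 0 and 2 passed without 1 mouse (2 without mouse 4). The median there was between 0.53 and 1.204. The block for the mouse changed no call at P20, where 0 members passed without it, nor in the difference between the ages, where 0 passed without it. With a block that shares the numbers between the ages, which name different mice, 0 members passed in control and 0 in Nrf2 eyes. Same-numbered eyes of the ages had a mean r of −0.0705 in control and −0.00565 in Nrf2 eyes, and 2 of 7 numbers in each had an r over 0.1.

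With age in control eyes, where 1 member passed, 5 passed at an adjusted *P* value under 0.1, 5 with DESeq2, 2 with at least 10 counts in every library, and 0 with limma voom, with total count scaling, without a filter, and without P20 mice 3 and 4. Without 1 eye it was between 0 and 3 (3 without P40 control 1), and the median was between −0.11 and 0.43. In Nrf2 eyes, where 0 passed, 4 passed at an adjusted *P* value under 0.1, 5 with DESeq2, 4 with limma voom, and 1 with at least 10 counts in every library. Without 1 eye it was between 0 and 1, and the median between 0.13 and 0.56. For the difference between the ages, 0 passed in all fits without 1 mouse, and the median was between −0.06 and 0.51. It was −0.07 without P20 mice 3 and 4, against 0.24 with them.

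The medians with age in control eyes and for the difference between the ages thus fell on both sides of 0. Of the named genes recomputed in these fits, which leave out values near 0 such as those of *Gpnmb*, *Ptprc*, *H2-Aa*, and *H2-Ab1* at P40 and *P2ry12* at P20, the ones that changed sign were *Tmem119* at P20 (−0.071 with total count scaling, and between −0.27 and 0.34 without 1 mouse, below 0 without mouse 4, 6, or 7), against 0.073 in the reported fit, and *Ccr2* at P40 (−0.044 without mouse 5, and up to 0.53 without 1 mouse). The cause was not tested. Depth limits what can be said of *Cd163*, *Ccl2*, *Ccr2*, and *Itgax*, which lay near the floor in several eyes.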
